A study of Thermothelomyces thermophilus ATCC 42464 with 8 samples.

Results

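The regions described here are H3K9me3 peaks of the wild type (WT) that were found in both WT libraries and had no counterpart in 1 library of the laeA deletion strain. Each entry of the WT replicate 1 peak list was joined with entries of equal start and end, and a peak was taken when it shared at least 1 bp with a peak of WT replicate 2 and no base with any peak of ΔlaeA replicate 1. This held for 3448 of the 5846 peaks of WT replicate 1 (59.0%), where 4954 (84.7%) were found in WT replicate 2 at all. They are called missing peaks below. The 1506 peaks that were found in WT replicate 2 and shared a base with a ΔlaeA replicate 1 peak are called kept peaks, and the other 892 peaks of WT replicate 1 had no counterpart in WT replicate 2. The members were chosen by presence and absence in these 3 lists, so the counts drawn from them are a description and were not tested.

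The mycelium of the thermophilic fungus Myceliophthora thermophila (ATCC 42464) was grown in 1 × Vogel's salts with 2% glucose at 45 °C for 24 h, either as the ΔlaeA strain, a null mutant of laeA, or as the WT strain. Each strain had 2 ChIP libraries, whose peaks are used here, and 2 inputs, which were not analysed on their own. The labels give the antibody as ab8902 for ΔlaeA and ab8898 for WT, the methods name ab8898 alone, and the series text names H3K79me3 where its title and samples name H3K9, so that an antibody difference and the strain cannot be told apart from the labels. Nothing says whether the 2 libraries of a strain came from separate cultures.

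H3K9me3 is the trimethylated form of lysine 9 of histone H3. In fungi it is laid down by SET-domain methyltransferases such as DIM-5 of Neurospora crassa and is bound by heterochromatin protein HP1, and it marks the silent chromatin of centromeres, chromosome ends and repeats. LaeA is a nuclear protein with a methyltransferase fold, first described in Aspergillus nidulans as a global regulator of secondary metabolism. Whether H3K9me3 sites depend on it was the question behind the comparison of the strains.

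The 4 peak lists were not called alike, and this bears on each count. In replicate 1, ΔlaeA had 3054 peaks (median 261 bp) and WT had 5846 (median 301 bp), of which 4 in ΔlaeA and 0 in WT had a q under 0.05. Replicate 2 peaks were longer, with medians of 1136 bp in ΔlaeA and 1536 bp in WT, and every one for which a q is given was past 0.05. The ΔlaeA replicate 2 list used here ends on chromosome 1 at position 3058073, so it was read only up to there. The depth of the libraries is unknown. The lists name no genome build, and positions are given as the lists have them.

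Missing peaks lay on all 7 chromosomes, and their share of the replicated WT peaks was nearly even. It ran from 66.9% on chromosome 4 (504 missing and 249 kept) to 73.9% on chromosome 3 (528 missing and 186 kept), around 69.6% for the genome. Among all WT replicate 1 peaks, whether replicated or not, 70.9% had no ΔlaeA replicate 1 peak, and among those not found in WT replicate 2 it was 78.4%. The share missing in the replicated peaks is thus near the background of the list. The number of missing peaks per Mb was uneven, at 154 on chromosome 6, 151 on chromosome 5, 107 on chromosome 4, 104 on chromosome 3, 80.9 on chromosome 7, 50.2 on chromosome 2 and 47.3 on chromosome 1. Missing peaks occurred in 424 of 779 windows of 50000 bp, and 115 windows (14.8%) held 50% of them. In the 233 windows with at least 10 replicated WT peaks, the share missing had a median of 69.2%, with quartiles of 60.0% and 80.0%. Within 50000 bp of the chromosome ends, 193 of 327 replicated peaks were missing (59.0%), against 3255 of 4627 elsewhere (70.3%). The end was taken as the last peak of any list.

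**Figure D1:**
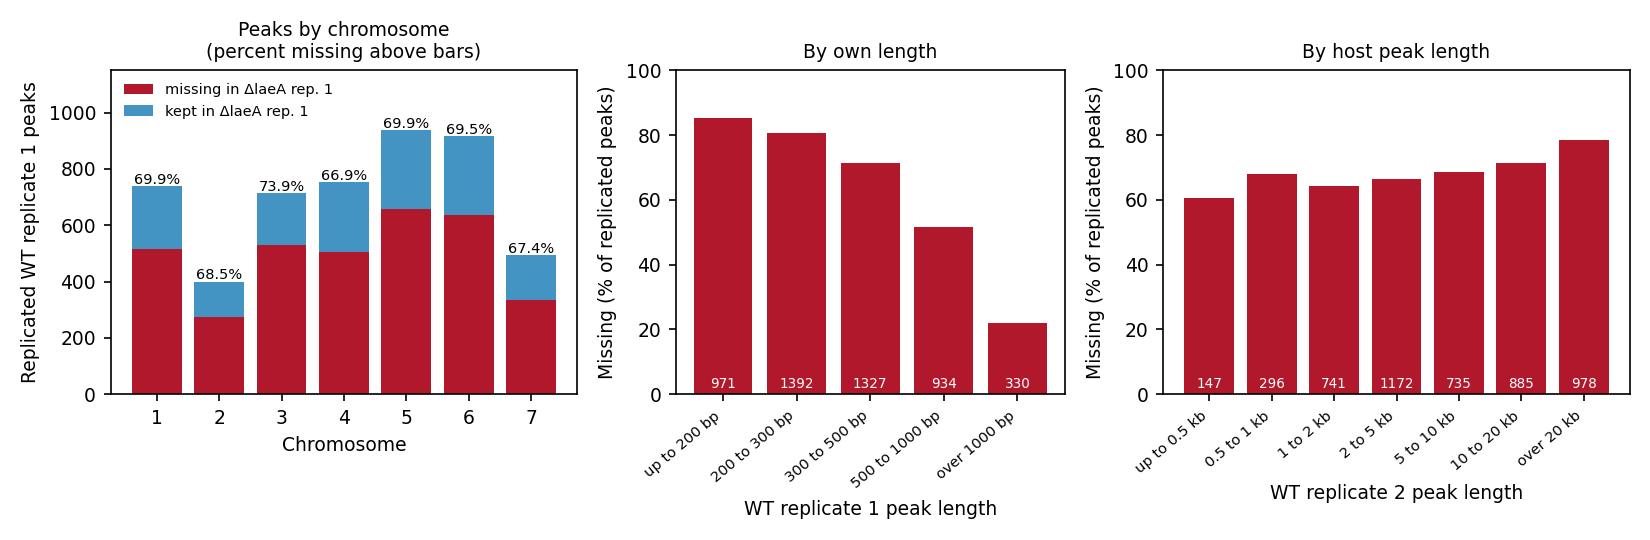
Left, bars give the number of replicated WT replicate 1 peaks on each chromosome, split into missing and kept peaks, with the percent missing above each bar; middle and right, they give the percent missing by the length of the WT replicate 1 peak and by the length of the WT replicate 2 peak it lies in, with the number of replicated peaks in white. The share is nearly even over chromosomes (66.9% to 73.9%), falls with the peak's own length and is higher in long WT replicate 2 peaks.

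The missing peaks were shorter and weaker than the kept peaks, and close to the peaks not found in WT replicate 2. Their length had a median of 279 bp (quartiles 204 and 410 bp), against 468 bp for the kept peaks (286 and 810 bp). The median fold enrichment in WT replicate 1, the summit signal over the local background, was 1.39 for missing and 1.47 for kept peaks, and the median −log10 p was 1.98 and 2.53 in the same order. The peaks not found in WT replicate 2 had medians of 265 bp, a fold enrichment of 1.38 and a −log10 p of 1.97. A −log10 p of at most 2 was found for 1891 missing peaks (54.8%) and for 33.8% of the kept peaks. The share missing was 85.2% of the replicated peaks of up to 200 bp, 80.5% above that and up to 300 bp, 71.3% up to 500 bp, 51.6% up to 1000 bp and 22.1% over 1000 bp. By −log10 p, it was 81.3% up to 1.5 and 34.0% over 4. A longer peak offers more bases to overlap with, and the part of length and strength in the missing calls was not tested.

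The 3 missing peaks of highest fold enrichment in WT replicate 1 lay over genes, as did 39.0% of all missing peaks. The highest fold enrichment in WT replicate 1 was 1.86, at chromosome 1 from 5184751 to 5184952 in the gene MYCTH_43727, inside a WT replicate 2 peak (5184281 to 5185838) of 1.92. The nearest ΔlaeA replicate 1 peak lay 3417 bp away. The same value of 1.86 was found at chromosome 5 from 3958192 to 3958746 (MYCTH_2129459), with 2.04 in WT replicate 2, and here a ΔlaeA replicate 1 peak lay 350 bp away. The third was at chromosome 5 from 211652 to 212529 (MYCTH_2307922), with 1.84 in WT replicate 1 and 2.32 in WT replicate 2. None of these 3 reached a q of 0.05 in WT replicate 1 (−log10 q 0.874 for each).

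The longest missing peak spanned 3495 bp on chromosome 3 from 22577 to 26071, over MYCTH_81753, and was joined from 12 entries. Its fold enrichment was 1.71 in WT replicate 1 and 2.22 in WT replicate 2, and the nearest ΔlaeA replicate 1 peak was 1031 bp away. The second spanned 2453 bp on chromosome 3 from 4643487 to 4645939 (MYCTH_49393), 7390 bp from a ΔlaeA replicate 1 peak. The third spanned 2188 bp on chromosome 5 from 804989 to 807176 (MYCTH_55132), with 1572 bp to such a peak. Among the 330 replicated peaks over 1000 bp these belonged to the 73 that were missing.

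The WT replicate 2 list shows what the missing peaks lay in. They fell in 1568 of its 3329 peaks (47.1%), of which 830 held 1 missing peak and 32 held at least 10. The 1568 peaks had medians of 2595 bp in length and 2.26 in fold enrichment. The 400 that held kept peaks only had 1372 bp and 2.05, and the 1361 with no WT replicate 1 peak had 895 bp and 1.84. Longer peaks have room for more replicate 1 peaks, so these medians partly follow from the rule. With the WT replicate 2 peak around a peak called its host, and counted per missing peak, the host's length was 6699 bp at the median (quartiles 2228 and 18423 bp) and its median fold enrichment 2.72, against 4240 bp and 2.59 for kept peaks. The share missing was 60.5% in hosts of up to 500 bp and 78.4% in hosts over 20000 bp. Of replicate 1 peaks up to 300 bp, 78.9% were missing in hosts up to 2000 bp, 81.1% in hosts up to 10000 bp and 84.9% in longer hosts. Of those over 300 bp, it was 56.4%, 55.9% and 62.0% in the same order, so only the longest hosts stood apart. With the host's fold enrichment the share changed little, from 75.4% up to 1.5 and 66.4% between 2 and 2.5 to 68.4% over 4.

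Most missing peaks lay wholly inside the WT replicate 2 peak, 2813 of 3448 (81.6%), against 65.5% of the kept peaks. In hosts over 10000 bp it was 97.5% and 90.7%. A shorter peak fits inside more easily, and the median length was 279 bp for missing and 468 bp for kept peaks. This contrast thus partly follows from length. The midpoint was in the central 50% of the host's length for 1608 missing peaks (46.6%), nearer an edge for 1577 (45.7%) and just outside the host for 263 (7.63%). For the kept peaks, 37.1% were central, 50.7% nearer an edge and 12.3% outside. The median distance from the midpoint to the nearer edge was 1205 bp for missing and 640 bp for kept peaks. The difference was clearest in hosts over 10000 bp, where 50.2% of the missing and 37.9% of the kept peaks were central. There, each decile of the host's length held between 8.82% and 11.1% of the missing peaks, so that they were spread evenly. The kept peaks in these hosts were most frequent in the outer deciles, with 13.1% and 17.8%, and least frequent just past the middle with 3.56%. In such hosts missing peaks thus lay in the interior as often as at the border, and kept peaks lay more often at the border.

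**Figure D2:**
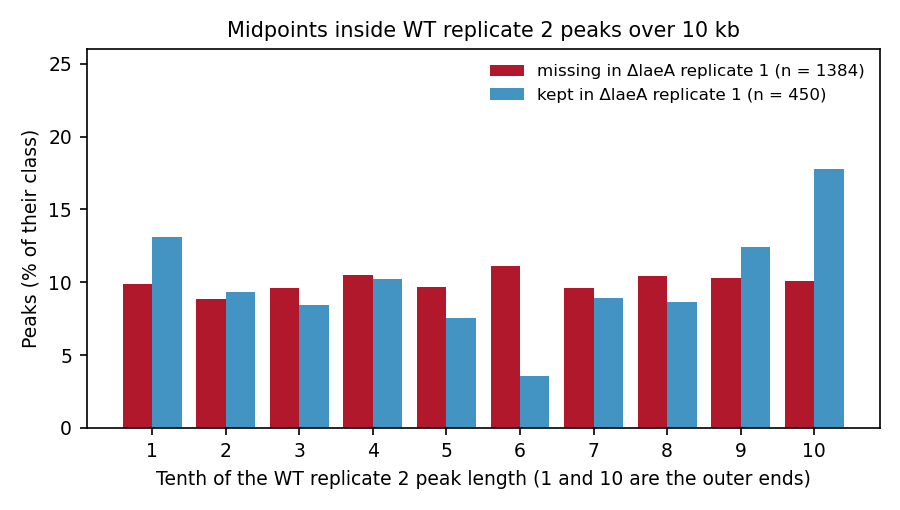
Bars give the percent of missing and of kept peaks whose midpoint lies in each decile of the length of a WT replicate 2 peak over 10000 bp. Missing peaks are spread evenly over the deciles (8.82% to 11.1%), and kept peaks are most frequent in the outermost ones (13.1% and 17.8%).

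The hosts of highest fold enrichment lay close to chromosome ends. One on chromosome 1 (10911210 to 10918359) reached 5.60 and held missing peaks from 10914573 to 10915422 and from 10917158 to 10917450, both with 1.53 in WT replicate 1. The ΔlaeA replicate 1 list had peaks 237 bp and 2822 bp from them. On chromosome 5, a missing peak from 4331527 to 4331740 (MYCTH_2309686) sat at the border of a peak with a fold enrichment of 5.41, and a ΔlaeA replicate 1 peak lay 48 bp away. None of the 3 shared a base with a ΔlaeA replicate 1 peak, yet each had one within 2822 bp.

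An absent counterpart did not mean that the whole domain was without a ΔlaeA replicate 1 peak. For 2181 missing peaks (63.3%), the WT replicate 2 peak around them held a ΔlaeA replicate 1 peak at another place. For the other 1267 (36.7%) it held none, and these hosts were shorter, with a median of 2125 bp against 13432 bp. Of the 1568 WT replicate 2 peaks with a missing peak, 741 (47.3%) held a ΔlaeA replicate 1 peak and 553 held a kept peak. The distance from a missing peak to the nearest ΔlaeA replicate 1 peak had a median of 1656 bp, and 715 missing peaks (20.7%) had one within 500 bp, 1917 (55.6%) within 2000 bp and 3148 (91.3%) within 10000 bp.

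The values at the limits of the rule were close. The smallest overlap with WT replicate 2 was 2 bp, at chromosome 2 from 2962512 to 2962771 (fold enrichment 1.38 in WT replicate 1), and 65 missing peaks shared under 50 bp. A missing peak on chromosome 4 from 283248 to 283777 (1.47) directly adjoined a ΔlaeA replicate 1 peak with 0 bases between, and 81 had a gap under 50 bp. Just outside, kept peaks on chromosome 5 from 3714722 to 3715516 (1.79) and chromosome 6 from 304291 to 304490 (1.30) shared 1 bp with a ΔlaeA replicate 1 peak, and 95 kept peaks shared under 50 bp. A peak on chromosome 2 from 5168431 to 5168647 (1.28) adjoined a WT replicate 2 peak without sharing a base, and 45 such peaks with no ΔlaeA replicate 1 peak had a gap under 50 bp.

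Missing peaks followed each other along the chromosomes. Read in order among the replicated WT replicate 1 peaks, they formed 911 runs, of which 267 were single peaks and 644 held 2 or more. The mean run held 3.78 missing peaks and the longest 24. The kept peaks also formed 911 runs, which had a mean of 1.65 and a longest of 8. Because 69.6% of the peaks in this order were missing, longer runs of missing than of kept peaks follow from the counts alone. Runs of at least 5 held 2089 missing peaks (60.6%).

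**Figure D3:**
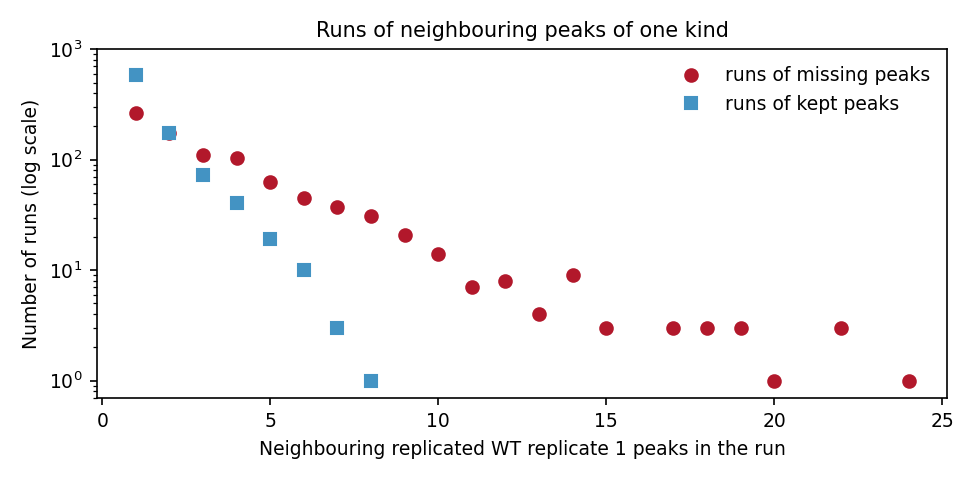
Points give the number of runs (log scale) by the number of neighbouring replicated WT replicate 1 peaks in the run, for missing and for kept peaks. Runs of missing peaks reach 24 peaks and runs of kept peaks 8.

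The run with most missing peaks, 24, was spread over 614925 bp of chromosome 3 from 618101 to 1233025 and touched 14 WT replicate 2 peaks with fold enrichments of 1.30 to 3.37. That span also held 8 ΔlaeA replicate 1 peaks, all away from the missing ones. Next came 3 runs of 22. The first was on chromosome 3 from 2182446 to 2291188 (108743 bp, 12 WT replicate 2 peaks, 7 ΔlaeA replicate 1 peaks). The second was on chromosome 4 from 377917 to 446584 (68668 bp, 11 and 3). The third, on chromosome 7 from 134400 to 210782, was dense, with 6 WT replicate 2 peaks of up to 29338 bp and a fold enrichment of up to 4.18, and 2 ΔlaeA replicate 1 peaks in 76383 bp. One further domain is named after its values were seen. The WT replicate 2 peak on chromosome 3 from 4083205 to 4118267 (35063 bp, fold enrichment 3.37) held 17 missing peaks, 0 kept peaks and 1 ΔlaeA replicate 1 peak. None of these domains lies on the stretch read in ΔlaeA replicate 2.

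The ΔlaeA replicate 2 list was not used to choose the members, and the first 3058073 bp of chromosome 1 therefore offered a second look. The replicate 2 peaks covered 24.7% of this stretch in ΔlaeA and 26.1% in WT, and the replicate 1 peaks 1.35% in ΔlaeA and 3.78% in WT. Of the 171 missing peaks there, 152 (88.9%) shared at least 1 bp with a ΔlaeA replicate 2 peak and 19 did not. Of the 64 kept peaks, 56 (87.5%) did. The share over all 300 WT replicate 1 peaks on this stretch was 70.0%, and it was 3.08% (2 of 65) for those not found in WT replicate 2. The share was far higher for replicated than for other WT replicate 1 peaks. Replicated peaks were chosen for sharing a base with WT replicate 2 peaks, and most of these overlapped a ΔlaeA replicate 2 peak here. That contrast thus partly follows from the rule. For missing and kept peaks the share was close at an overlap of 1 bp. At an overlap of 200 bp the share was 56.7% for missing and 73.4% for kept peaks. A peak under 200 bp cannot reach this overlap. Among peaks with a ΔlaeA replicate 2 peak, the median length was 262 bp for missing and 401 bp for kept ones. The gap at 200 bp thus partly follows from length. For ΔlaeA replicate 2 peaks with a fold enrichment of at least 3 the share was 52.0% for missing and 37.5% for kept peaks. Of all WT replicate 2 peaks there, 84.0% overlapped a ΔlaeA replicate 2 peak. The overlaps were mostly complete, since 117 of the 152 missing peaks (77.0%) lay wholly inside the ΔlaeA replicate 2 peak. With 1 ΔlaeA library on each side of this contrast, and with peaks that share domains, no test was made. In the longest run of missing peaks on this stretch, 19 peaks from 902670 to 1141709, 16 had a ΔlaeA replicate 2 peak. One more missing peak ran across the end of the covered part and was left out.

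The fold enrichment of the replicate 2 peaks around these missing peaks was compared next. The 152 missing peaks lay in ΔlaeA replicate 2 peaks with a median fold enrichment of 3.59 (quartiles 1.99 and 4.75) and in WT replicate 2 peaks with a median of 2.74 (2.05 and 3.59). The value was higher in ΔlaeA for 102 (67.1%). For the 56 kept peaks the medians were 2.32 in ΔlaeA and 2.58 in WT, and the value was higher in ΔlaeA for 29 (51.8%). The missing peaks share hosts, so pairs of overlapping replicate 2 peaks were also counted. Of the 78 pairs with a missing peak, 45 had the higher value in ΔlaeA, against 61 of the 110 pairs without a missing peak. Pairs are not hosts, since a host or a ΔlaeA replicate 2 peak can enter several pairs. A pair without a missing peak can be part of a host that holds one in another pair. Where WT replicate 2 had a fold enrichment of at most 2, ΔlaeA was higher in 7 of 22 pairs, between 2 and 3 in 20 of 37, and over 3 in 18 of 19. The 110 overlapping pairs without a missing peak had the higher value in ΔlaeA in 19 of 45, 29 of 49 and 13 of 16 in the same order. Over 3, those that were lower in ΔlaeA were all parts of hosts with a missing peak in another pair. Each value is relative to the background of its own library and belongs to the summit of the whole host peak, so the order between strains at a missing peak itself was not measured.

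**Figure D4:**
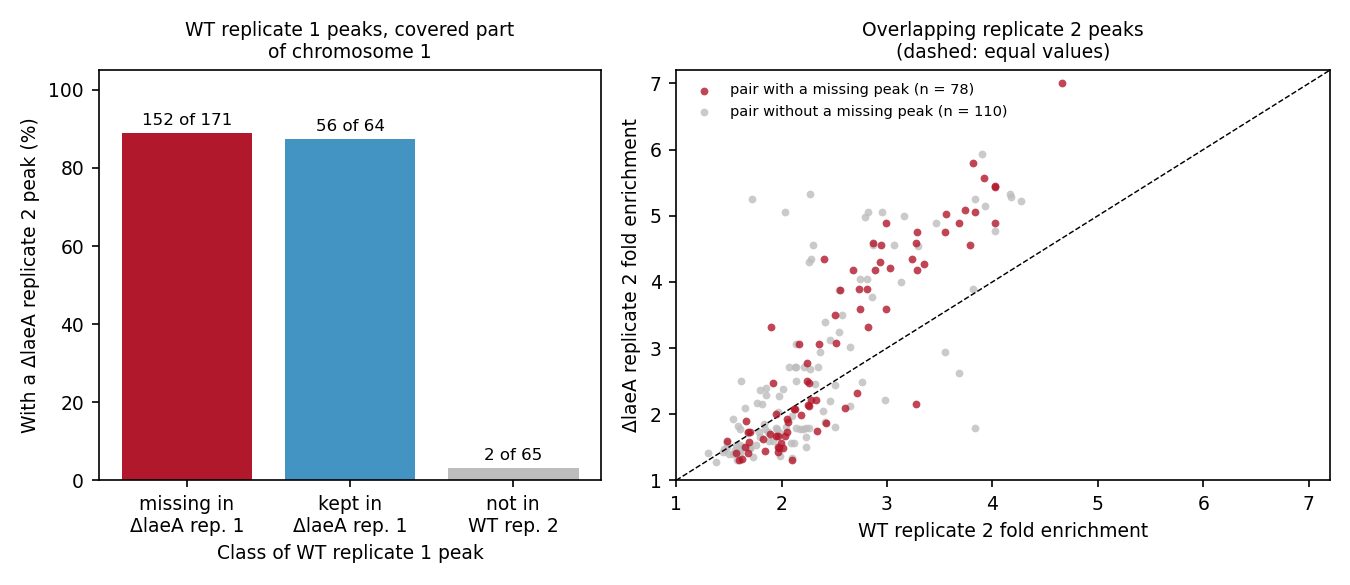
Left, bars give the percent of WT replicate 1 peaks on the covered part of chromosome 1 that shared a base with a ΔlaeA replicate 2 peak, by class, with counts above; right, each point is a pair of overlapping replicate 2 peaks with the fold enrichment in ΔlaeA on the vertical and in WT on the horizontal axis. At an overlap of 1 bp the share is 88.9% for missing and 87.5% for kept peaks. At 200 bp, which peaks under 200 bp cannot reach, it is 56.7% and 73.4%. Of the pairs with a WT value over 3, 18 of 19 with a missing peak and 13 of 16 without one lie above the line of equal values.

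The highest ΔlaeA replicate 2 fold enrichment, 7.01, was that of a domain at the left end of chromosome 1 (7207 to 41052). Its WT replicate 2 counterpart (7166 to 41181) reached 4.66 and had nearly the same borders. Inside it, ΔlaeA replicate 1 had 20 peaks, and WT replicate 1 had 15 missing and 12 kept peaks. The missing ones were 147 to 555 bp long with fold enrichments of 1.28 to 1.57, and all 15 shared bases with the ΔlaeA replicate 2 peak. The 3 nearest the chromosome end ran from 8764 to 8910 (1.28), 9650 to 10204 (1.57) and 10379 to 10552 (1.34), and ΔlaeA replicate 1 peaks lay 357, 126 and 855 bp from them. Missing and kept peaks were interspersed along this domain.

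**Figure D5:**
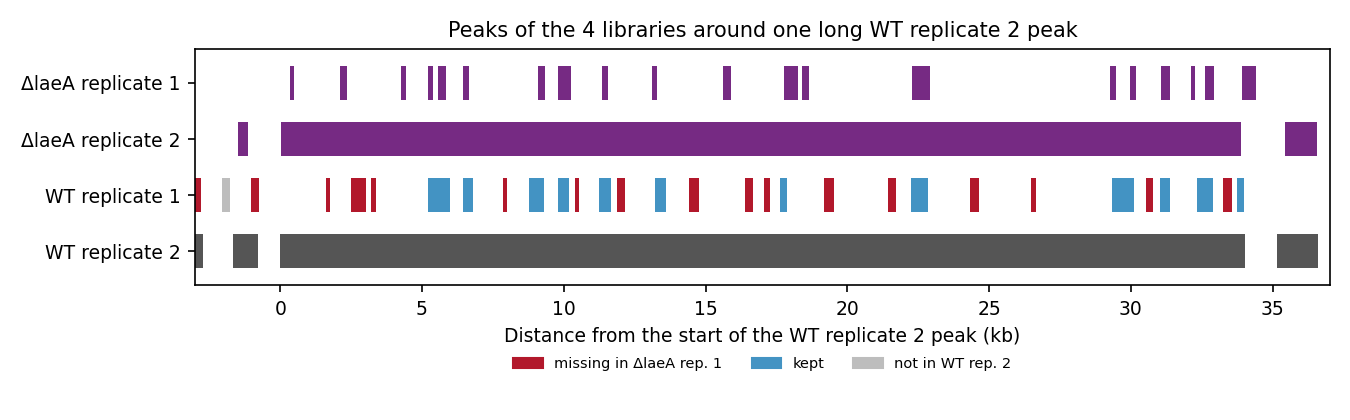
Boxes give the peaks of each library along the 34016 bp WT replicate 2 peak at the left end of chromosome 1, with distance from its start in kb on the horizontal axis and WT replicate 1 peaks coloured by class. The replicate 2 peaks of both strains span the domain, and the short replicate 1 peaks of the strains fall at different places within it for 15 missing peaks and at shared places for 12 kept ones.

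Only 19 missing peaks on the covered part had no peak in either ΔlaeA library. They lay in 17 WT replicate 2 peaks of 304 to 5068 bp. The whole WT replicate 2 list had medians of 1536 bp and a fold enrichment of 2.07. Counted per missing peak, the host had a median of 1471 bp and a median fold enrichment of 1.84 (range 1.30 to 2.87). Counted alike, the hosts of the 152 had medians of 5750 bp and 2.74. Such a count gives more weight to hosts that hold many missing peaks. The median fold enrichment in WT replicate 1 was 1.38 in both sets. For 12 of the 19, the host overlapped a ΔlaeA replicate 2 peak elsewhere along its length, and for 7 it did not. Of the 19, 3 were central in the host, 11 nearer an edge and 5 had their midpoint outside it. The gap to the nearest ΔlaeA replicate 2 peak was 2 bp at the smallest, 198 bp at the median and 10497 bp at the largest.

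The 6 with the highest −log10 p in WT replicate 1 are given one by one. The first, from 2541677 to 2542491, had a fold enrichment of 1.78 in WT replicate 1 and 1.30 in WT replicate 2, in a peak of 304 bp. It lay 16671 bp from a ΔlaeA replicate 1 peak and 2042 bp from a ΔlaeA replicate 2 peak. The second, from 2686422 to 2686824 in MYCTH_2114650, had 1.71 and 1.84 in WT replicates 1 and 2. A ΔlaeA replicate 2 peak lay 185 bp away and a ΔlaeA replicate 1 peak 12760 bp. The third and the sixth were neighbours, from 958227 to 958450 (1.55) and from 957784 to 957999 (1.41), in MYCTH_2294362 and in 1 WT replicate 2 peak of 578 bp (1.75). The nearest ΔlaeA peaks lay 17349 bp (replicate 1) and 5672 bp (replicate 2) from this pair. The fourth, from 2810886 to 2811168, had 1.59 and 2.19 in WT, with ΔlaeA peaks 230 bp (replicate 1) and 75 bp (replicate 2) away. The fifth, from 2917043 to 2917592, had 1.51 and 1.59, with 350 bp and 2536 bp to ΔlaeA peaks. The pair in MYCTH_2294362 was thus the site with the widest surroundings free of ΔlaeA peaks among these 6.

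The 19 peaks overlapped 9 genes, and 12 of the 19 (63.2%) lay over a gene, against 64 of the 152 with a ΔlaeA replicate 2 peak (42.1%). In 2 of the 9 genes, MYCTH_2294362 and MYCTH_2114617, neither ΔlaeA library had a peak anywhere in the gene body. MYCTH_2114610, MYCTH_2114650, MYCTH_2295561 and MYCTH_2051335 had none in ΔlaeA replicate 1 but had at least 1 in ΔlaeA replicate 2, among them MYCTH_2051335, described as a cyclin-like F-box protein, a class that targets proteins for degradation. MYCTH_2295298, MYCTH_2295558 and MYCTH_2313501 had peaks in both ΔlaeA libraries.

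Over the whole genome, missing peaks lay more often between genes than kept peaks. A base of a protein-coding gene body was shared by 1346 missing peaks (39.0%), by 45.4% of the kept peaks and by 56.5% of the peaks not found in WT replicate 2. They touched 996 of 9097 genes (10.9%), where WT replicate 1 peaks of any kind touched 19.3%. A single missing peak was found in 720 of these genes, 2 in 206 and 3 or more in 70. In 307 of the 996 genes a ΔlaeA replicate 1 peak lay elsewhere in the gene, and 689 had none. The median length of the 996 genes was 1702 bp, and that of all genes 1733 bp. Of the 194 tRNA genes and tRNA pseudogenes, 0 carried a missing and 3 a kept peak.

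The genes with most missing peaks were MYCTH_2308034 on chromosome 5 and MYCTH_75351 on chromosome 6, with 10 each, followed by MYCTH_117478 on chromosome 7 with 8. MYCTH_2308034 also had 2 kept peaks and MYCTH_117478 had 4, while MYCTH_75351 had 0 kept peaks but 4 ΔlaeA replicate 1 peaks at other places. MYCTH_117478 is described as a fungal transcriptional regulatory protein, the family with a zinc cluster that binds DNA. These 3 genes are long in the gene table (10501, 25321 and 19477 bp), and a long gene has more room for peaks. MYCTH_2057132 on chromosome 2, of the same regulatory family, had 5 missing peaks in 3468 bp and no kept or ΔlaeA replicate 1 peak.

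Descriptions were at hand for 862 of the 9097 genes, so classes of genes were only counted. Of these 862, 126 (14.6%) carried a missing peak. Genes with words for transport carried one in 10 of 58 cases, those for oxidoreductases in 11 of 49, for carbohydrate-active proteins in 9 of 48, for kinases in 4 of 31, for mobile elements in 1 of 12, for methyltransferases in 3 of 8, for heterokaryon incompatibility in 1 of 2 and for unnamed proteins in 11 of 27. The 9 include a DNA glycosylase-like protein (MYCTH_2027194), matched only by the letters glycosyl. They also include a PfkB carbohydrate kinase (MYCTH_2064976) that is counted among the kinases too. A match to the words transcription factor, zinc finger or Zn was found in 42 genes, 6 with a missing peak, of which 1 is fungal specific transcription factor MYCTH_111741, 4 are other zinc finger genes and 1 is a P-type ATPase (MYCTH_2061857). The words for fatty acid, polyketide or peptide synthesis matched 8 genes, and the 2 with a missing peak are not described as such synthases. MYCTH_2053048 is described as an acyl-CoA N-acyltransferase, and MYCTH_102295 as nitrilase/cyanide hydratase and apolipoprotein N-acyltransferase. Further groups were looked up after the values were seen. Fungal transcriptional regulatory proteins, which those words miss, carried a missing peak in 7 of 17 genes. Cytochromes P450, haem enzymes that oxidise many fungal metabolites, carried a missing peak in 7 of 14 genes. The 14 held 2 kept peaks between them, 3 had a ΔlaeA replicate 1 peak, and the 7 are also counted among the oxidoreductases. Terpenoid synthases carried a missing peak in 2 of 2 genes and berberine-like proteins in 2 of 3, with 2 and 1 kept peaks. Genes with a phosphopantetheine attachment site, the carrier domain of polyketide and nonribosomal peptide synthetases and of fatty acid synthesis, did so in 3 of 5. These were MYCTH_103096 and MYCTH_103061 on chromosome 5 with 4 missing peaks each and MYCTH_115501 on chromosome 3 with 3, and all 3 had 0 kept peaks. MYCTH_103096 had 1 ΔlaeA replicate 1 peak elsewhere in the gene. The other 2 genes of this group had 0 missing and 2 kept peaks between them, and both had a ΔlaeA replicate 1 peak. These genes are outside the stretch read in ΔlaeA replicate 2, so their values rest on 1 ΔlaeA library.

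Of 7 genes chosen because the study works with them, 0 carried a missing peak, against 10.9% of all protein-coding genes. A further gene of the study, laeB (MYCTH_2295350), codes for a LaeA-like methyltransferase and carried 1. It was looked up after its values were seen and is not counted with the 7. Its missing peak, on chromosome 1 from 2430959 to 2431173, had a fold enrichment of 1.26 in WT replicate 1. A ΔlaeA replicate 2 peak (2431121 to 2431770) with a fold enrichment of 1.62 shared 53 bp with it, and its WT replicate 2 host (2430983 to 2432337) had 1.83. The nearest ΔlaeA replicate 1 peak lay 25196 bp away. The other 7 held 0 missing peaks in their gene bodies. The nearest missing peak was 158137 bp from laeA (MYCTH_2294559). For the transcription factor genes it was 49942 bp from cre-1 (MYCTH_2310085), the carbon catabolite repressor, 77973 bp from grf-1 (MYCTH_37566), 6286 bp from grf-2 (MYCTH_2089183) and 4483 bp from grf-3 (MYCTH_2309668). For the genes of gluconeogenesis it was 26094 bp from pck (MYCTH_2315623), which codes for phosphoenolpyruvate carboxykinase, and 68687 bp from fbp (MYCTH_2306943), which codes for fructose-1,6-bisphosphatase. The peak nearest grf-3 lay on chromosome 5 from 4309294 to 4309576, with a fold enrichment of 1.28 in WT replicate 1 and 2.20 in WT replicate 2.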

How the data were processed

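H3K9me3 ChIP of mycelium was read from the peak lists the authors deposited, 1 for each of the 4 ChIP libraries (2 ΔlaeA, 2 WT). Per the labels and methods, reads were trimmed, mapped with Bowtie2 and called with MACS2 in each library, with unique mappers kept. The genome build is not given in the sources used here. The submitters' processing notes name Trimmomatic 0.36, Bowtie2 2.3.4.3, MACS2 2.1.2 and ChIPseeker 2.16.0, and the methods name Trim Galore and other versions. Deposited pileups are a signal (coverage by fragments at a summit). The fold enrichment the authors deposited is the ratio of that to local background. The authors also deposited −log10 p and −log10 q from MACS2. Replicate 1 lists reach a p of 0.05. The lowest −log10 q was 1.34 in WT replicate 2 and 2.12 in the part held of ΔlaeA replicate 2, so the same cut-off is not shown for both. The replicate 1 pileups were rescaled (0% whole numbers). Across lists, scores were set side by side. Only the fold enrichment of overlapping replicate 2 peaks was also counted as higher or lower in ΔlaeA.

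Entries of equal start and end were joined, with the highest value of each score. A host is the WT replicate 2 peak that shares most bases. Genes are those of the RefSeq table of assembly ASM22609v1, without strand. Of WT replicate 2 peak edges, 11.1% lay within 100 bp of a gene boundary, and 8.46% to 9.78% after shifts of up to 1000 bp. Descriptions came from the study's gene table, held in part, of which 1262 of 1266 genes matched.

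The members, gene groups and rules for named regions (extremes by fold enrichment, length, overlap and run, the followed-up genes, and the genes with most members, with laeB added after its values were seen) were chosen with earlier results of these data known. No test was made, since the lists chose the members. The self-check assigned all 5000 simulated peaks as planted. No sequence is printed. Python 3.11.15, numpy 2.4.6, pandas 2.3.3 and scipy 1.17.1 were used, with matplotlib 3.10.9 for figures.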

Additional observations from a re-analysis of the deposited data

How the results depend on the processing

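Of 29 alternatives for 7 results, 13 were classed as leaving the value the same and 16 as moving it. The first class still holds sizeable shifts. Genes with a missing peak went from 996 to 1448 with 1000 bp added on either side. The longest run went from 24 to 17 at a gap of at most 5000 bp. The number of missing peaks moved from 3448 to 2222 with no ΔlaeA replicate 1 peak within 1000 bp, 1557 at a −log10 p of at least 2 in WT replicate 1, 1379 at a fold enrichment of at least 3 in WT replicate 2 and 1617 with equal numbers of replicate 1 peaks, where 61.4% of the replicated peaks were missing. Chosen after seeing the data, it was 1267 with no ΔlaeA replicate 1 peak anywhere in the host and 1501 for peaks over 300 bp. Leaving out WT replicate 2 gave 4147. Leaving out WT replicate 1 gave 2026, but the peaks counted can then only be those of WT replicate 2, so the unit differs. On the covered part of chromosome 1, the 171 missing peaks became 27 without ΔlaeA replicate 1. With the replicate block, 228 WT replicate 1 peaks were missing within replicate 1, 32 WT replicate 2 peaks within replicate 2, and 7 WT replicate 1 peaks within both. Nothing in the labels ties equal replicate numbers of the strains together.

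The share of covered missing peaks with a ΔlaeA replicate 2 peak (88.9%) was 56.7% at an overlap of 200 bp, 79.5% at 50% of the shorter peak and 52.0% at a fold enrichment of at least 3, and for kept peaks 73.4%, 76.6% and 37.5%, so that the order of missing and kept peaks turned at 200 bp. It also turned at a −log10 q of at least 5, with 83.6% for missing and 85.9% for kept peaks. The central share (46.6%) was 30.9% for a centre of 33.3% of the length, 80.5% for midpoints over 200 bp from an edge and 50.4% in hosts of fold enrichment of at least 3, and for kept peaks 23.6%, 72.4% and 35.7%. By construction, stricter cut-offs leave fewer peaks. An overlap of 200 bp leaves out shorter ones, and of all replicated peaks up to 200 bp, 85.2% were missing. Otherwise the cause was not tested. The depth of the libraries is unknown, the replicate numbers differ in calling, and 1 ΔlaeA list is held in part, so losses over the other chromosomes rest on 1 ΔlaeA library.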
